A study of Mus musculus with 7 samples.

Results

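The matrix metalloproteinases (Mmp), the ADAMTS proteinases, the ADAMTS-like proteins (Adamtsl) and the tissue inhibitors of metalloproteinases (Timp) were followed through EMT6 mouse mammary tumors. Members were taken by a rule on gene symbols, which was set with earlier results of these data known. They were 50 protein-coding genes of the 53465 in the table, made up of 22 Mmp, 19 Adamts, 5 Adamtsl and 4 Timp genes. EMT6 cells, a carcinoma line of the mouse mammary gland, were placed into a mammary fat pad of female Balb/c mice aged 6 to 8 weeks. EMT6-P (parental) denotes 3 tumors grown under IgG isotype control antibody, and EMT6-PTR denotes 3 tumors grown under αPD-L1 antibody (PDR in the labels), both dosed at 250 μg per mouse every 3 days until the endpoint. A single metastasis of the resistant variant, from a mouse given αPD-L1, has no replicate and no labelled site. The comparison asks how tumors that regrew under αPD-L1 differ from tumors that never met it. All libraries stem from the same cell line, the treated and control tumors differ in both antibody and selection, and no source states that the 3 libraries of a group came from separate mice, so that the p-values measure the spread between these libraries only. Captions of the study call replicates technical where nothing else is specified. The libraries of a group, each called a tumor here, may therefore be technical replicates in the study's sense. Their values nevertheless differed by more than counting error. The chi-square per degree of freedom was 16.1 to 21.5 between EMT6-P libraries and 241 to 427 between EMT6-PTR libraries, so that the parental libraries were much more alike. Such values do not tell pieces of 1 tumor from separate tumors. Whether they came from the same tumor is not stated.

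These proteins set how extracellular matrix is cut. Matrix metalloproteinases are zinc enzymes that are made as inactive precursors, and between them they degrade fibrillar collagen, basement membrane and other matrix, whereas ADAMTS proteinases mainly trim proteoglycans and process procollagen. ADAMTS-like proteins share the ancillary domains of ADAMTS proteinases without the catalytic one, and TIMPs bind and block the active enzymes. In tumors, fibroblasts, endothelial cells and leukocytes contribute much of this expression beside the carcinoma cells.

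Total estimated counts ran from 20430110 to 25213472 per library, and expression is given as CPM (counts scaled to the library total, on edgeR's upper-quartile scale), or as CPM per kilobase of exon (CPM per kb) where genes are compared with each other. A single gene, CT010467.1, took 13.8% of the counts of EMT6-PTR replicate 2 and between 0.433% and 1.35% elsewhere. EMT6-PTR replicate 3 stood apart in marker genes. Its 8 fibroblast markers summed to 2657 CPM per kb against 696 to 941 in EMT6-P, with 6 of the 8 above every EMT6-P tumor and 1 below. In EMT6-PTR replicate 2 they summed to 1147 CPM per kb, also with 6 of the 8 above every EMT6-P tumor and 0 below. In replicate 3 the 5 epithelial markers summed to 325 against 1375 to 1483, with 3 of the 5 below every EMT6-P tumor and 0 above. Its 4 pericyte or smooth muscle markers summed to 26.6 against 258 to 337, with all 4 below. In replicate 2 the epithelial markers summed to 1303 CPM per kb, also with 3 of the 5 below every EMT6-P tumor and 1 above. The epithelial keratin gene Krt8, a marker of the carcinoma, was nonetheless detected in every primary tumor, at 505 to 1898 CPM. It was at 743 CPM in the metastasis, whose lung markers, given below, were high. EMT6-PTR replicate 1 carried skeletal muscle markers at 1766 CPM per kb against at most 285 in the other libraries. In bulk tissue, fewer cells of a type and less RNA per cell cannot be told apart.

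Of the 50 members, 37 passed the filter on low counts (15 Mmp, 14 Adamts, all 5 Adamtsl and 3 Timp). The other 13 were Adamts3, Adamts17, Adamts18, Adamts19, Adamts20, Mmp1b, Mmp7, Mmp16, Mmp20, Mmp21, Mmp24, Mmp27 and Timp4. Mmp20, the enamel proteinase, and Mmp21 had 0 counts in all 7 libraries, which at this depth allows up to 3 counts in each. Mmp7 (matrilysin, an epithelial proteinase) was at 31 counts in EMT6-PTR replicate 3 and at 0 or 1 in every other library. Timp4 reached 17 counts in the same tumor, 6 in EMT6-PTR replicate 1 and 13 in the metastasis.

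A run of Mmp genes lies together on chromosome 9, from Mmp13 (start 7272514) to Mmp7 (end 7699585, GRCm38). The 100 bases before the start of 4 of its genes are shown beside those of Mmp14, Adamts1, Timp1 and Timp2, whose values follow, because the windows differ in the short motifs they hold. Sequences are from RefSeq (GRCm38.p6), 5′ to 3′ on the strand of the gene. Capitals mark every match, on either strand, to one of the 3 motifs searched. The AP-1 motif was spelled TGANTCA. The TATA box was spelled as the letters TATAAA, and the GC box, which runs together with its neighbour in Mmp14, as GGGCGG.
Mmp3 (chr9:7445722-7445821, + strand): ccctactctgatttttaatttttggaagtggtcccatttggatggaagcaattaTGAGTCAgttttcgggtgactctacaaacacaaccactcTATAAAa
Mmp10 (chr9:7502242-7502341, + strand): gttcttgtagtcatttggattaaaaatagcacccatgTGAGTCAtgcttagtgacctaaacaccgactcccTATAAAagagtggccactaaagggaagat
Mmp12 (chr9:7347274-7347373, + strand, the later of its RefSeq starts): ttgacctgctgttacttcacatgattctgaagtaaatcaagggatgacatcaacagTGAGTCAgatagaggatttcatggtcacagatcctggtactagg
Mmp13 (chr9:7272414-7272513, + strand): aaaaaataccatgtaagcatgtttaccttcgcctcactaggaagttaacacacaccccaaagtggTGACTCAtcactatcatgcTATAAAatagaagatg
Mmp14 (chr14:54431498-54431597, + strand): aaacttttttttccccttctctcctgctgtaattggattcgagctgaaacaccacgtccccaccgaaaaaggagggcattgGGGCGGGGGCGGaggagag
Adamts1 (chr16:85803114-85803213, - strand): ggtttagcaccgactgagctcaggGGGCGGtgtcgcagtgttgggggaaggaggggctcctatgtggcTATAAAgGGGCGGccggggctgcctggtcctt
Timp1 (chrX:20870066-20870165, + strand): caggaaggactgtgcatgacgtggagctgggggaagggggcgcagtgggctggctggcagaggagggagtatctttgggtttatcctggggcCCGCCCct
Timp2 (chr11:118355412-118355511, - strand): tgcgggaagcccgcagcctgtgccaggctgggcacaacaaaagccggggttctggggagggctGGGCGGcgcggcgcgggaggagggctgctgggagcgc

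A RefSeq window of 250 bases before to 50 after a start was found for 35 of the 50 members. The AP-1 motif, the site bound by the Fos and Jun proteins, was present for 7 of these 35 genes, and all 7 were among the 9 Mmp genes of the chromosome 9 cluster, against 8.97% of all 27025 genes with a window. The letters TATAAA were found for 8 of those 9 genes, anywhere in the window and on either strand, against 15.7% of all genes. The match of Mmp12 lay at 5, after its later start, and that of Mmp8 at −3 on the opposite strand. The window of the earlier Mmp12 start held none of the motifs searched. The 4 cluster genes printed above all hold the AP-1 motif, whereas Mmp8 and Mmp27 of the cluster do not. A GC box was found for 0 of the 9, for 8 of 10 Adamts genes and for all 4 Adamtsl genes, against 38.2% of all genes. In the windows found, the cluster and the other members thus mostly carried different letters at their starts. Outside the cluster, Adamts1, Adamtsl2 and Mmp21 held TATAAA, and Timp4, Adamts12, Adamts17 and Mmp21 held no GC box. Mmp27 of the cluster held none of the motifs searched. The 15 members without a window, Mmp2, Mmp9, Adamts4 and Adamts5 among them, were not searched. These matches describe the sequence and say nothing of which factor acted in these tumors.

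No member passed the test between the groups. The quasi-likelihood test of edgeR, with p-values adjusted by Benjamini-Hochberg and a threshold of 0.05, called 0 of the 15645 tested genes (0.0%) and 0 of the 37 members. The smallest adjusted p over all genes in that edgeR test was 0.421. At an unadjusted p under 0.05, 9 members passed (24.3% of 37, against 11.4% of all genes). 8 of them were higher in EMT6-PTR (5.84% of all genes), namely Adamtsl5, Adamts5, Adamts1, Adamts10, Mmp28, Adamts12, Adamtsl4 and Adamts15, and 1 was lower (5.57%), Adamts16. Leaving out EMT6-PTR replicate 3 made the number of members at that level 10. It was only 1 when parental replicate 1 was left out and 2 when parental replicate 2 was. The number over all genes moved the same way, from 1786 of 15645 to 3234 of 15941, 618 of 16109 and 861 of 16101 in these 3 fits. These shifts are therefore not particular to the members. DESeq2 called 2 members at an adjusted p under 0.05, Adamtsl5 and Adamts5, both higher (1.01% of all genes it assessed were called higher and 1.04% lower).

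By size, 6 members were at least 2-fold higher (16.2%, against 6.27% of all genes): Adamts5, Adamts15, Mmp2, Mmp25, Adamts1 and Adamtsl5. Mmp10 and Adamts16, 2 in all, were at least 2-fold lower (5.41%, against 1.29%). When EMT6-PTR replicate 3 was left out, 4 were higher and 2 lower, with no share of all genes given for that fit. The fold change was above 0 for 20 of 37 members (54.1%, against 52.3% of all genes). The groups did not overlap for 7 members, 6 higher (9.52% of all genes) and 1 lower (11.8%), a share of 18.9% that lies near the 21.3% of all genes. By family these were 5 of 14 Adamts genes (35.7%) and 2 of 5 Adamtsl genes (40.0%), against 21.3% of all genes, and 0 of 15 Mmp and 0 of 3 Timp genes. With the number over all members near the share of all genes, this split is a description only and was not tested. The median log2 fold change was 0.06 over the 37 members and 0.03 over all genes, with −0.12 for Mmp, 0.05 for Adamts, 0.60 for Adamtsl and 0.52 for Timp.

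**Figure D1:**
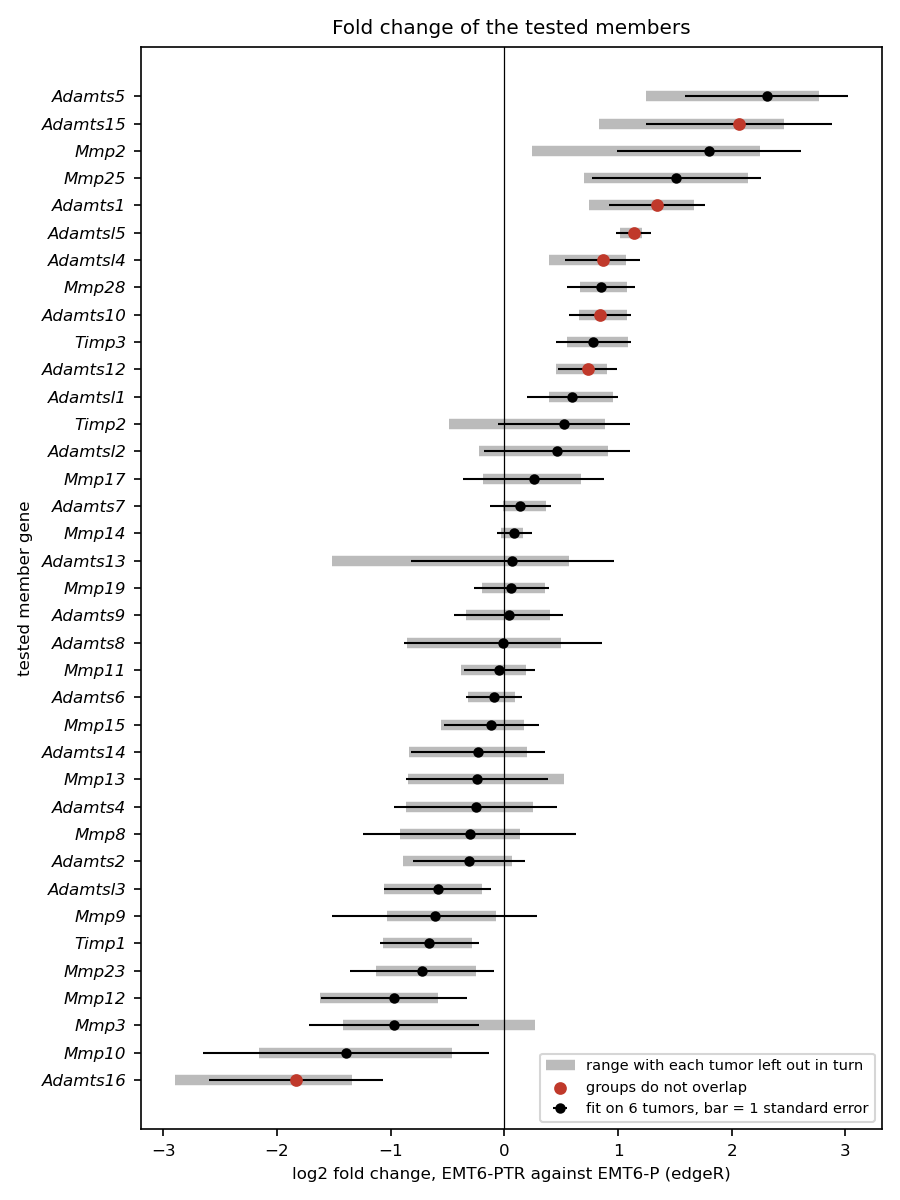
Log2 fold change of EMT6-PTR against EMT6-P (x axis) for the 37 tested members (y axis), from edgeR with 1 standard error (black bar), with the range when each tumor is left out in turn (grey) and members whose groups do not overlap in red. Adamtsl5 has the narrowest grey range among the red points, 1.02 to 1.21, whereas Mmp2 runs from 0.24 to 2.25.

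Among the ADAMTS-like genes, Adamtsl5 (chromosome 10, 80339110 to 80348412, GRCm38), a matrix protein of microfibrils, had the smallest p of all members. Its level was 14.8, 13.8 and 14.01 CPM in EMT6-P replicates 1 to 3 and 29.5, 28.1 and 36.1 CPM in EMT6-PTR replicates 1 to 3. Every resistant tumor was above every parental one, and the tumors of each group lay close together. The log2 fold change was 1.14 ± 0.15 (standard error, n = 3 and 3), with an unadjusted p of 2.16e-04 and an adjusted p of 0.421 in edgeR's quasi-likelihood test, and DESeq2 gave 1.16 with an adjusted p of 8.01e-07. Leaving out single tumors gave values from 1.02 to 1.21. In the metastasis it was 26.7 CPM, also above all 3 EMT6-P tumors.

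Adamtsl4, which binds fibrillin microfibrils, was at 11.9, 11.9 and 10.9 CPM in EMT6-P and at 14.4, 16.04 and 32.6 CPM in EMT6-PTR. The groups did not overlap, but replicate 3 lay well above the other resistant tumors, and the log2 fold change of 0.86 ± 0.33 became 0.40 without it (edgeR, unadjusted p = 0.0379, adjusted p = 0.432). Adamtsl3 was at 46.7 to 57.4 CPM in EMT6-P and at 52.9, 36.6 and 12.6 CPM in EMT6-PTR, so that replicates 2 and 3 lay below every EMT6-P tumor, replicate 3 furthest. Summed over the 5 genes, the Adamtsl level was 12.5 ± 0.82 CPM per kb in EMT6-P and 16.2 ± 1.29 in EMT6-PTR (SD, n = 3 each).

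The ADAMTS proteinases that cleave aggrecan and versican, the large proteoglycans of loose matrix, diverged from each other. Adamts1 and Adamts5 are neighbours on the minus strand of chromosome 16, at 85793827 to 85803113 and 85856173 to 85901828. Adamts1 was at 38.8, 41.3 and 43.4 CPM in EMT6-P and at 52.1, 86.3 and 175 CPM in EMT6-PTR, without overlap. Its log2 fold change was 1.35 ± 0.42 and 0.75 without EMT6-PTR replicate 3 (edgeR, unadjusted p = 0.0168, adjusted p = 0.421).

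Adamts5, the principal aggrecan-cleaving enzyme of mouse cartilage, was at 19.8, 17.1 and 26.7 CPM in EMT6-P and at 26.3, 74.6 and 214 CPM in EMT6-PTR. Replicate 1 lay inside the parental range and the other resistant tumors above it. The log2 fold change was 2.31 ± 0.72 and 1.24 without replicate 3 (edgeR, unadjusted p = 0.0161, adjusted p = 0.421), and DESeq2 gave an adjusted p of 0.0287. Adamts4, the other classical aggrecanase, was instead at 84.8, 125 and 100.5 CPM in EMT6-P and at 99.0, 147 and 14.5 CPM in EMT6-PTR, so that replicate 3 alone was low (log2 fold change −0.25, and 0.25 without that tumor). In that tumor Adamts5 stood at 6.61 times the level of Adamts4 per kb, against 0.0609 to 0.226 times in the other primary tumors.

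Adamts15, a further versican-cleaving member, was scarce, at 6, 21 and 17 counts in EMT6-P and 24, 26 and 159 counts in EMT6-PTR. Replicate 3 again held the highest count, and the log2 fold change of 2.06 ± 0.82 was 0.84 without it (edgeR, unadjusted p = 0.0427, adjusted p = 0.433). Over the 6 tested proteoglycan-cleaving Adamts genes, 3 had an unadjusted p under 0.05, all higher, against 5.84% of all genes, and the median log2 fold change was 0.69. Adamts1, Adamts15 and Adamtsl5 are also on a list of induced secreted genes that the study chose on these tumors, which is therefore no independent evidence of their direction.

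Adamts10, which acts on fibrillin, was at 10.4, 10.9 and 12.2 CPM in EMT6-P and at 12.8, 22.5 and 24.7 CPM in EMT6-PTR, again without overlap (log2 fold change 0.84 ± 0.27). Adamts12, which cleaves the cartilage protein COMP, was at 23.8, 25.4 and 34.0 CPM in EMT6-P and at 34.2, 42.0 and 62.0 CPM in EMT6-PTR, where the lowest resistant tumor was only just above the highest parental one (log2 fold change 0.73 ± 0.26). Their adjusted p-values in edgeR's test were 0.424 and 0.427. Adamts16 was the single member apart in the lower direction, at 68, 108 and 132 counts in EMT6-P and 63, 19 and 7 counts in EMT6-PTR, with a log2 fold change of −1.83 ± 0.76 (edgeR, unadjusted p = 0.0498, adjusted p = 0.437). The procollagen N-proteinases Adamts2 and Adamts14, which trim the amino ends of fibrillar procollagens, had log2 fold changes of −0.31 and −0.23, with replicate 3 lowest for both, and of 0.070 and 0.20 without that tumor.

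**Figure D2:**
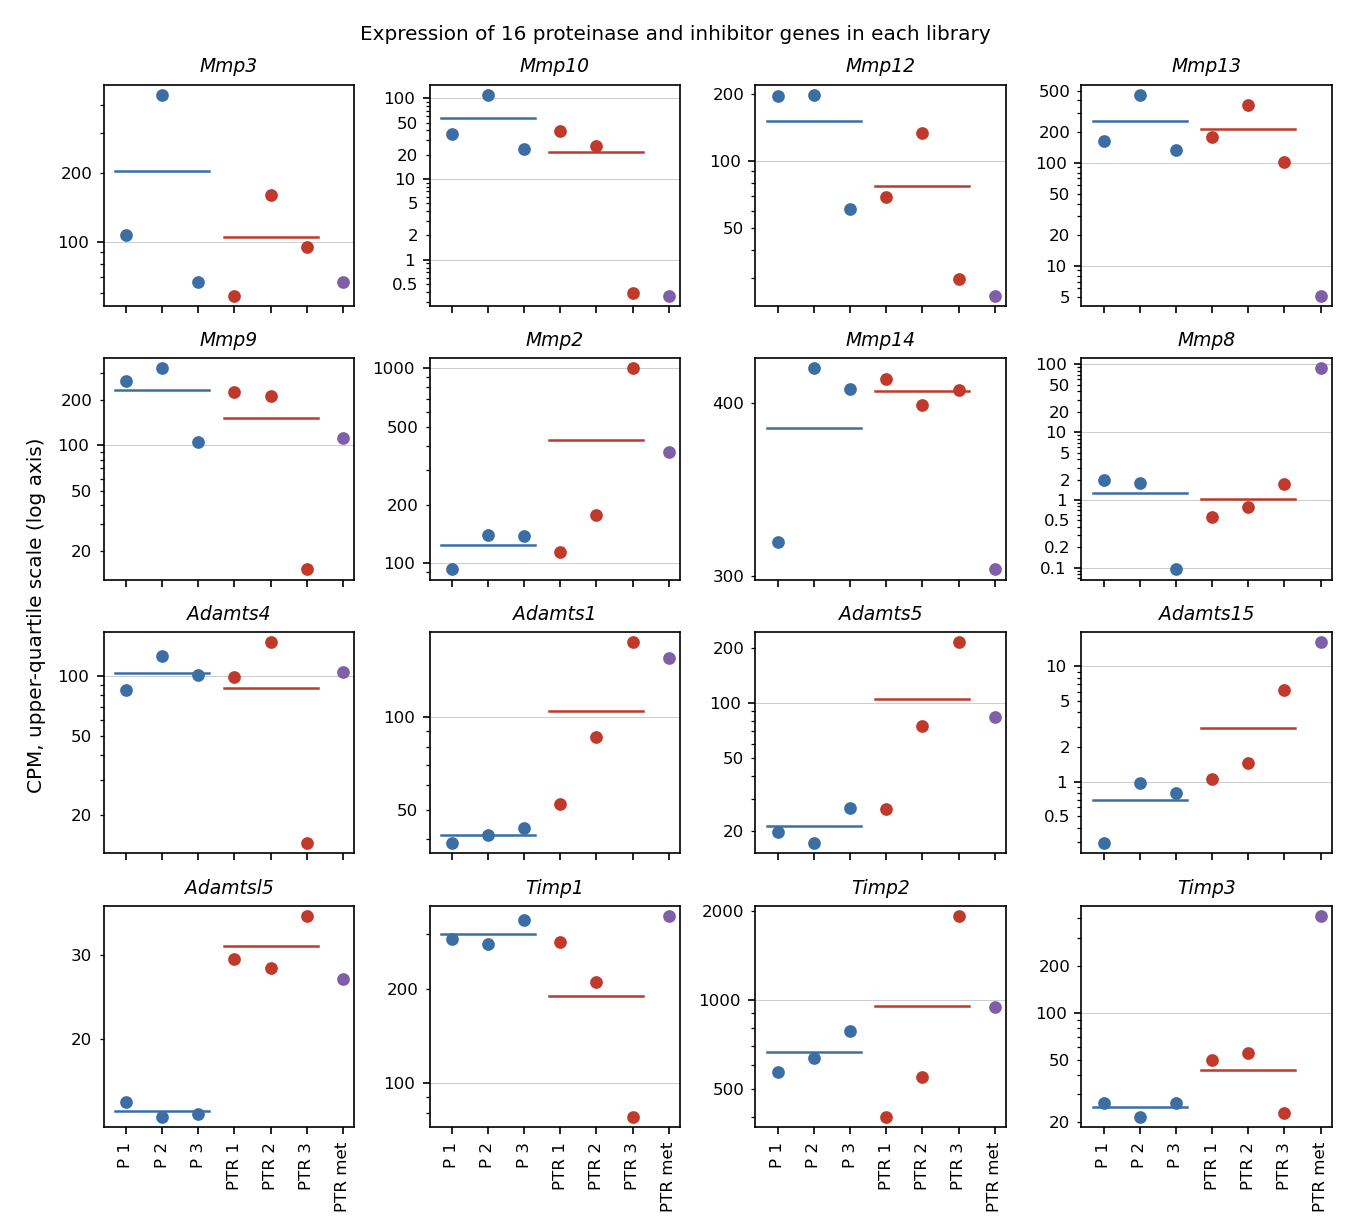
CPM on a log axis (y) of 16 member genes in each of the 7 libraries (x), with blue for EMT6-P, red for EMT6-PTR, purple for the metastasis and a line at each group mean of 3 tumors. EMT6-PTR replicate 3 is the high red point for Mmp2, Adamts1, Adamts5 and Timp2 and the low one for Mmp9, Mmp10, Adamts4 and Timp1.

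The gelatinases, which cut denatured collagen and the type IV collagen of basement membranes, differed most in EMT6-PTR replicate 3, where one was high and the other low. Mmp2, largely a product of fibroblasts and other mesenchymal cells, was at 93.2, 140.1 and 138 CPM in EMT6-P, at 114 and 178 CPM in EMT6-PTR replicates 1 and 2, and at 999.7 CPM in replicate 3. Mmp9, typical of myeloid cells, was at 264, 321 and 105 CPM in EMT6-P, at 226 and 211 CPM in EMT6-PTR replicates 1 and 2, and at 15.0 CPM in replicate 3. The groups overlapped for both genes, and one tumor held the extreme of each.

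Per kb, Mmp2 stood at 69.8 times Mmp9 in EMT6-PTR replicate 3, against 0.371 to 1.37 times in the other primary tumors. The Mmp2 log2 fold change was 1.80 ± 0.81 (edgeR, unadjusted p = 0.0642, adjusted p = 0.451) and only 0.24 without replicate 3. That of Mmp9 was −0.61 ± 0.90 (adjusted p = 0.788 in edgeR's test) and −0.08 without it. The fibroblast markers of replicate 3, given above, were high in the same tumor as Mmp2, and their part in the result was not tested.

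The 4 cluster genes whose upstream bases are printed above are Mmp3, Mmp10, Mmp12 and Mmp13. Mmp3 and Mmp10 are the stromelysins of chromosome 9, Mmp12 the macrophage elastase and Mmp13 the main fibrillar collagenase of the mouse. Each was highest in EMT6-P replicate 2, a parental tumor that held the highest primary value of 7 members in all (18.9%, against 11.5% of all genes), Mmp9 on chromosome 2 among them. Mmp3 was at 107, 443 and 66.6 CPM in EMT6-P and at 58.3, 161 and 95.3 CPM in EMT6-PTR. Mmp13 was at 162, 457 and 132 CPM in EMT6-P and at 177, 358 and 100.3 CPM in EMT6-PTR. The parental replicate 2 exceeded the other parental tumors more than the groups differed, and without it the log2 fold change turned from −0.97 to 0.27 for Mmp3 and from −0.24 to 0.52 for Mmp13.

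Mmp10 was at 740, 2377 and 504 counts in EMT6-P and at 905 and 455 counts in EMT6-PTR replicates 1 and 2. In EMT6-PTR replicate 3 it was at 10 counts, a log2 difference of −6.57 from the EMT6-P mean. Its fitted log2 fold change was −1.39 ± 1.26, −0.81 without that tumor and −0.46 without EMT6-P replicate 2 (edgeR, adjusted p = 0.655). Mmp12 was at 197, 199 and 60.9 CPM in EMT6-P and at 69.1, 134 and 29.6 CPM in EMT6-PTR, with overlap (log2 fold change −0.97 ± 0.64, adjusted p = 0.558 in edgeR's test). The 6 macrophage markers of the primary tumors summed to 754 to 914 CPM per kb in EMT6-PTR and 789 to 959 in EMT6-P. The lowest sum was that of EMT6-PTR replicate 3, with 3 of the 6 markers below every EMT6-P tumor and 0 above. Replicates 1 and 2 each had 2 above, with 1 and 2 below. The part of these markers in the Mmp12 values was not tested.

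Mmp14, the membrane-bound proteinase that activates the precursor of Mmp2 on the cell surface, was at 317, 423 and 409 CPM in EMT6-P and at 416, 398 and 408 CPM in EMT6-PTR, a log2 fold change of 0.09 ± 0.16 (adjusted p = 0.831 in edgeR's test). Mmp28 (epilysin, a secreted proteinase of epithelia) was at 14.2, 11.6 and 18.9 CPM in EMT6-P and at 17.7, 29.9 and 33.2 CPM in EMT6-PTR, with one resistant tumor inside the parental range (log2 fold change 0.85 ± 0.30, edgeR unadjusted p = 0.0258, adjusted p = 0.427). Mmp25 (leukolysin, a leukocyte proteinase) was the other Mmp gene fitted at least 2-fold higher, at 1.51 ± 0.74, on no more than 50 counts in a primary tumor. Mmp23 was at 4.43, 4.91 and 5.90 CPM in EMT6-P and at 3.93, 4.62 and 0.703 CPM in EMT6-PTR, with replicate 2 inside the parental range and the others below it (log2 fold change −0.72 ± 0.64, and −0.25 without replicate 3). Mmp9, Mmp10, Mmp12, Mmp23 and Adamts16 form part of the study's list of lowered secreted genes and Mmp2 of its induced one, both chosen on these tumors and so not independent of the values given here.

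The inhibitors stood in another order in the same resistant tumor as the gelatinases. Timp1, an inducible inhibitor of secreted MMPs encoded on the X chromosome, was at 288, 278 and 333 CPM in EMT6-P and at 282, 210.1 and 77.6 CPM in EMT6-PTR. Timp2, which also bridges Mmp14 to the Mmp2 precursor, was at 571, 636 and 786 CPM in EMT6-P and at 401, 547 and 1915 CPM in EMT6-PTR. Timp2 was thus lower than every parental tumor in 2 of the resistant tumors and higher in the other, and its log2 fold change of 0.52 ± 0.58 turned to −0.49 without replicate 3 (adjusted p = 0.716 in edgeR's test). The log2 fold change of Timp1 was −0.66 ± 0.43 and −0.29 without that tumor (adjusted p = 0.556 in edgeR's test).

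Timp3, a matrix-bound inhibitor that also blocks ADAMTS and ADAM proteinases, followed another order. It was at 26.4, 21.4 and 26.5 CPM in EMT6-P and at 49.6, 55.6 and 22.8 CPM in EMT6-PTR, so that replicates 1 and 2 were above the parental range and replicate 3 inside it. Its log2 fold change was 0.78 ± 0.33 and 1.08 without replicate 3 (edgeR, unadjusted p = 0.0528, adjusted p = 0.441). Timp3 shares 1733 bases of exon with Syn3 on the opposite strand. The libraries were made with a stranded kit, but the strand setting of the counting was not given, and the same limit touches Mmp12 (157 bases shared with Mmp1b), Mmp19 (789 with Tmem198b) and Mmp28 (466 with 1700020L24Rik), among others. The chromosome 9 genes Mmp3 and Mmp10 resemble each other closely in sequence, and their estimated counts may share reads.

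Per kb and averaged over the 6 primary tumors, Timp1 (276) and Timp2 (208) held the highest levels of all members, followed by Mmp13 (86.5), Mmp3 (86.2), Mmp2 (82.2), Mmp14 (66.4) and Mmp9 (53.8 CPM per kb). Neighbours in this order did not differ beyond their spread over the tumors, with an SD of 102 for Timp1, 143 for Timp2, 53.3 for Mmp13, 80.8 for Mmp3, 105 for Mmp2 and 31.5 for Mmp9, although that of Mmp14 was only 6.596. The summed Mmp level was 456 ± 250 CPM per kb in EMT6-P and 430 ± 97.8 in EMT6-PTR, and the summed Timp level 511 ± 59.6 and 464 ± 104 (SD, n = 3 each). The Mmp and Timp sums thus differed between the groups by less than the spread within them. The summed Adamts level was 48.8 ± 6.96 CPM per kb in EMT6-P and 66.5 ± 13.4 in EMT6-PTR (SD, n = 3 each), with no test run. In EMT6-PTR replicate 3, Mmp2 made up 58.9% of the Mmp level against 5.60% to 14.6% in the other primary tumors, Timp2 made up 84.5% of the Timp level against 24.1% to 36.6%, and Adamts4 made up 4.04% of the Adamts level against 40.3% to 46.7%.

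**Figure D3:**
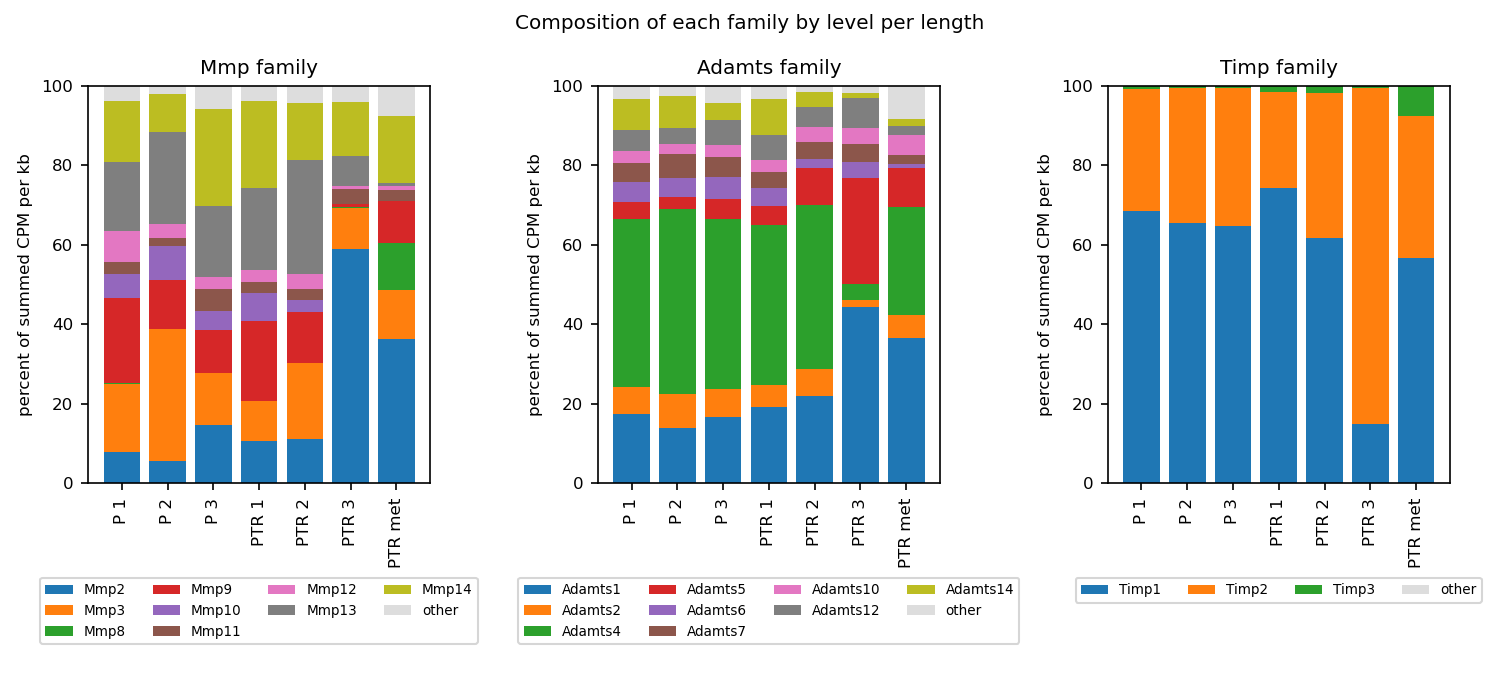
Share of each gene in the summed CPM per kb of its family (y axis, percent) in each library (x axis) for the Mmp, Adamts and Timp families, with genes under 5% in every library pooled as other. EMT6-PTR replicate 3 differs from the other 5 primary tumors in all 3 panels, with Mmp2 at 58.9%, Adamts1 at 44.5% and Timp2 at 84.5%.

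EMT6-PTR replicate 3 held the highest primary-tumor value of 15 members and the lowest of 16, together 83.8% of the 37, against 67.2% of all genes (32.7% highest and 34.5% lowest). For the Adamts genes this was 14 of 14. In that tumor 27 of 37 members (73.0%) lay at least 2-fold from the EMT6-P mean, 12 above and 15 below, against 25.4% of all genes (11.8% above and 13.6% below). The corresponding numbers were 5 of 37 (13.5%, against 5.5%) for replicate 1 and 9 of 37 (24.3%, against 8.86%) for replicate 2. The differences went both ways within a role, as for Mmp2 against Mmp9, Adamts5 against Adamts4 and Timp2 against Timp1. The lower summed epithelial and pericyte markers and higher summed fibroblast markers of replicate 3 accompanied its values. In replicate 2 too, 6 of the 8 fibroblast markers were above every EMT6-P tumor and 3 of the 5 epithelial markers below. Their part in these counts was not tested.

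**Figure D4:**
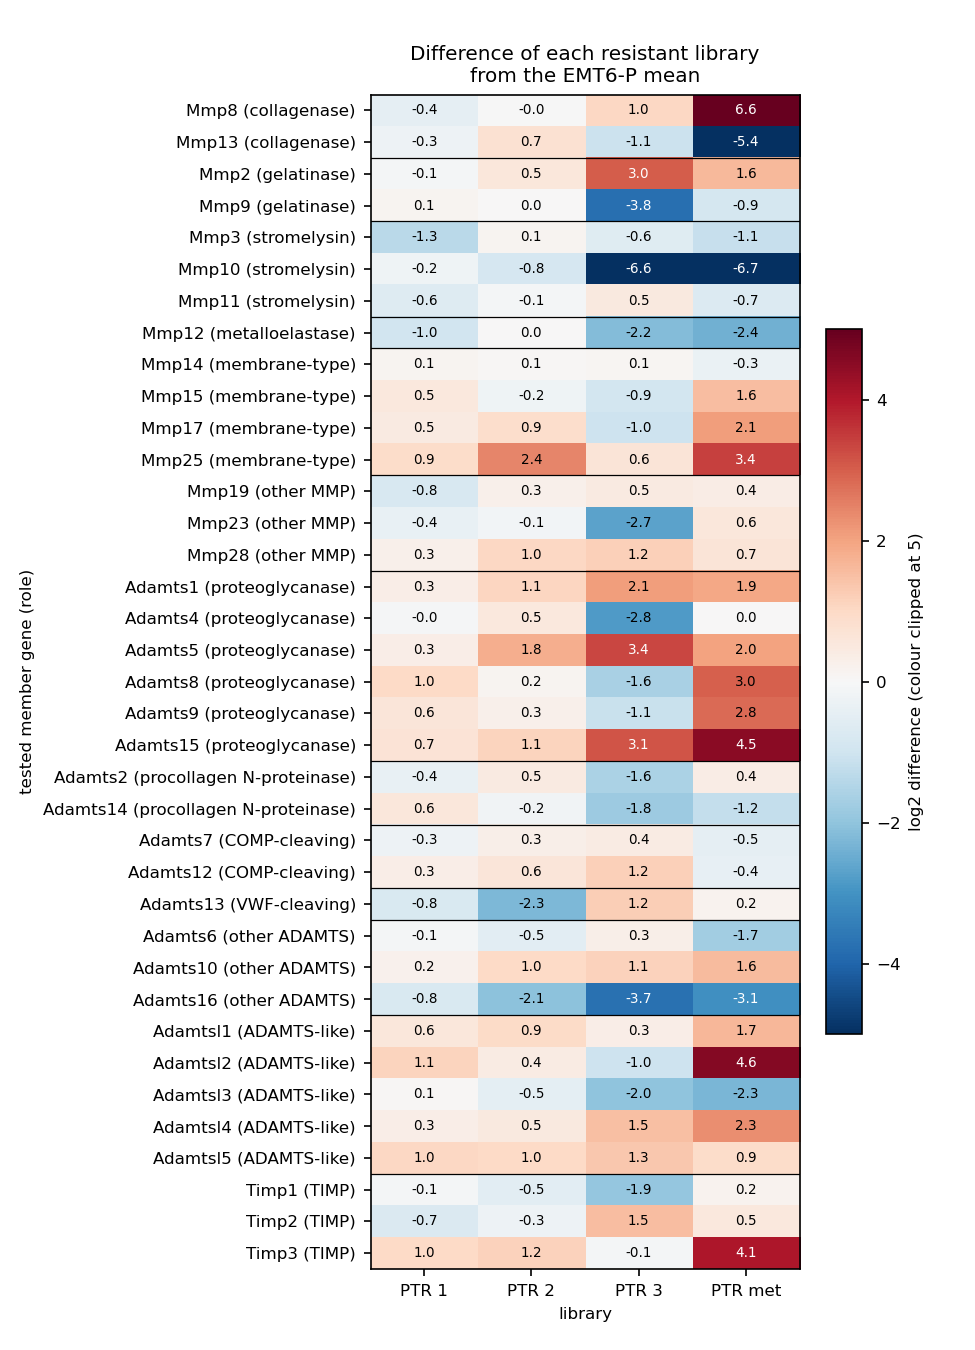
Log2 CPM of each EMT6-PTR tumor and of the metastasis minus the mean of the 3 EMT6-P tumors, for the 37 tested members in rows ordered by role and the 4 libraries in columns, red for higher and blue for lower, with colour clipped at 5. The EMT6-PTR replicate 3 column holds 27 members at least 1 log2 unit from 0, against 5 in replicate 1 and 9 in replicate 2.

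The genes of 40 other proteins of the same proteolytic network were examined for context: plasminogen activation, ADAM proteinases, cathepsins, astacins, proprotein convertases and surface regulators. Of these, 31 were tested and 0 were called by edgeR's quasi-likelihood test, with 2 at an unadjusted p under 0.05 (6.45%, against 11.4% of all genes). Pcolce2, an enhancer of procollagen C-proteinase, was at 32.1, 32.1 and 25.9 CPM in EMT6-P and at 20.03, 14.8 and 8.09 CPM in EMT6-PTR, without overlap (log2 fold change −1.07 ± 0.33, adjusted p = 0.421 in edgeR's test). Lrp1, the endocytic receptor that clears many proteinases and their inhibitors, had a log2 fold change of 0.61 ± 0.24 with overlapping groups (edgeR adjusted p = 0.433). Next in order of p, Tll1 (0.72) was apart in the higher direction, Adam15 (−0.21) was apart in the lower direction, and Plat (−0.56), which encodes tissue plasminogen activator, overlapped.

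The metastasis was compared with the primary tumors by its values alone. 13 members were at least 2-fold above the EMT6-PTR mean (35.1%, against 12.4% of all genes) and 6 at least 2-fold below (16.2%, against 8.58%). 14 members were above all 6 primary tumors (20.9% of all genes) and 9 below all 6 (24.1%). The 5 lung markers, among them the surfactant gene Sftpc, summed to 9536 CPM per kb in the metastasis and to at most 12.6 in a primary tumor. The 6 neutrophil markers summed to 4815 against at most 85.2, and the 4 endothelial markers to 127 against at most 25.3. All 15 of these genes were above every primary tumor. The 6 macrophage markers summed to 690 CPM per kb in the metastasis against at least 754 in a primary tumor. Of these 6 genes, 4 were below all 6 primary tumors. The part of all these markers in the differences below was not tested.

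Mmp8, the neutrophil collagenase, was at 2174 counts in the metastasis and at 40, 38 and 2 counts in EMT6-P and 13, 14 and 44 counts in EMT6-PTR, a log2 difference of 6.43 from the EMT6-PTR mean. Mmp13, another collagenase of the cluster, was at 128 counts against 2566 to 9779 in the primary tumors, a log2 difference of −5.15. Mmp8 and Mmp13 thus stood in reverse order in the metastasis, at 11.9% and 0.634% of the Mmp level per kb. In the primary tumors Mmp8 was at most at 0.231% and Mmp13 at least at 7.45%. Mmp10 was at 9 counts, a log2 difference of −4.12 and next to the 10 counts of EMT6-PTR replicate 3, and Mmp12 was at 24.9 CPM, below all 6 primary tumors (−1.38).

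Timp3 was at 413 CPM in the metastasis against 21.4 to 55.6 CPM in the primary tumors, a log2 difference of 3.37. It made up 7.48% of the Timp level there and 0.482% to 1.78% in the primary tumors. Timp1 (342 CPM) was just above the highest primary tumor, and Timp2 (943 CPM) lay within their range. The summed Timp level was 2.24 times the summed Mmp level, against 0.646 to 2.07 times in the primary tumors.

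Among the ADAMTS group, Adamtsl2, which binds fibrillin and latent TGFβ-binding protein, was at 351 counts against 5 to 27 (log2 difference 4.44). Adamts8 was at 124 counts against 3 to 27 (3.15) and Adamts9 at 54.0 CPM against 3.36 to 11.5 (2.93). Adamts15 was at 405 counts, above the 159 of EMT6-PTR replicate 3. Adamts6 (5.68 CPM, log2 difference −1.62) and Adamtsl3 (10.5 CPM, −1.46) were below all 6 primary tumors. Of the genes whose values set EMT6-PTR replicate 3 apart, Mmp2 (371 CPM), Adamts1 (156 CPM) and Adamts5 (83.9 CPM) lay in the metastasis above every EMT6-P tumor and below replicate 3, while Adamts4 (105 CPM) lay in the EMT6-P range. Within the wider network, Plaur, the urokinase receptor, and Reck, a membrane-bound MMP inhibitor, were 2.81 and 2.76 log2 units above the EMT6-PTR mean.

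**Figure D5:**
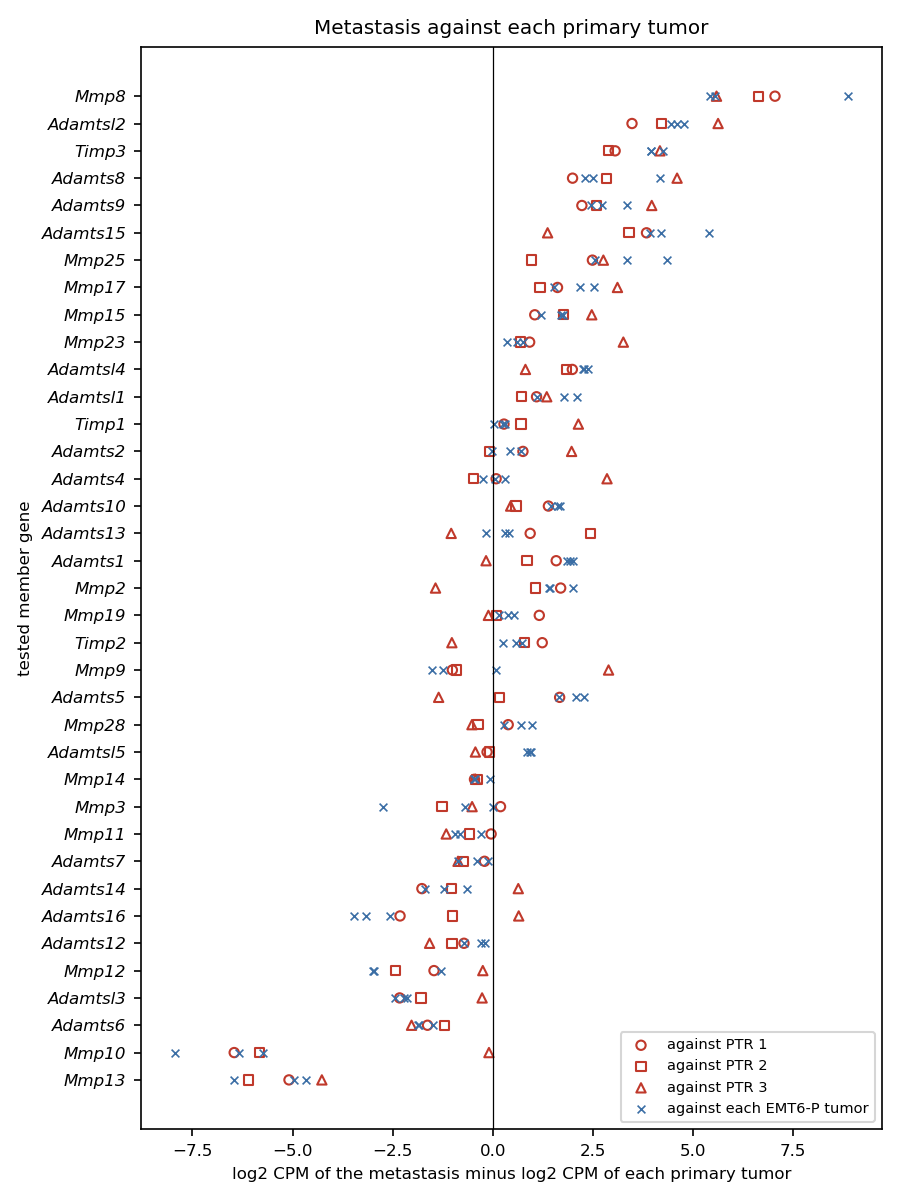
Log2 CPM of the metastasis minus log2 CPM of each primary tumor (x axis) for the 37 tested members (y axis), with red open symbols for the 3 EMT6-PTR tumors and blue crosses for the 3 EMT6-P tumors. Mmp8, Adamtsl2 and Timp3 lie to the right of 0 against all 6 tumors and Mmp13 to the left against all 6, whereas Mmp10 is near 0 against EMT6-PTR replicate 3 only.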

How the data were processed

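RNA from 7 libraries was sequenced after stranded polyadenylated library preparation. The authors aligned reads with STAR 2.6.0a to GRCm38 with the GENCODE M16 annotation, and deposited estimated counts per gene from RSEM 1.3.1 before filtering or normalization. RSEM divides reads shared by similar genes, so values of close relatives are uncertain. Per library, 13.5% to 15.6% of values were fractional, and counts were rounded. No libraries of a group held like values: chi-square per degree of freedom was 16.1 or more.

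Members were matched by symbol in GENCODE M21. Mmp1a, annotated as a polymorphic pseudogene, was not a member. Low counts were removed with filterByExpr, libraries were scaled by the upper quartile, and 3 tumors were tested against 3 with edgeR 4.0.16 (glmQLFit, glmQLFTest) in R 4.3.3, with adjustment over all genes and a threshold of 0.05. Standard errors are the log2 fold change over the square root of F. Per-library log2 CPM used a prior count of 2. The fits were tested on simulated data. Alternatives were TMM, DESeq2 1.42.0, limma-voom (limma 3.58.1), other filters, the metastasis as an extra group, the replicate block and each tumor left out. Promoter windows are from RefSeq (GRCm38.p6).

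Full values are given for the Timp genes, the 8 smallest p-values, members apart and at least 2-fold different, members on the study's preliminary lists, the 6 highest levels per kb and the 5 largest metastasis differences in each direction. Other members named (such as Mmp25, Adamts4 and Mmp7) were chosen after their values were seen. The members and lists were chosen with earlier results of these data known. Intervals for 0 counts cover counting error only. The study's cultured-cell and other tumor data were not analysed here. Tables and plots used Python 3.11.15, pandas 2.3.3 and matplotlib 3.10.9.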

Additional observations from a re-analysis of the deposited data

How the results depend on the processing

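With 3 tumors a group and 1 resistant tumor far from the others, the counts of members moved with single libraries. The edgeR settings and limma-voom called 0 members, with 1 to 12 at an unadjusted p under 0.05, whereas DESeq2 called 2 higher (Adamtsl5 and Adamts5). The 1 was found without EMT6-P replicate 1, where 618 of 16109 genes passed that level. The 12 were found with no filter on low counts, where 2177 of 28451 genes did. For the 2-fold counts that follow, no share of all genes is given under the alternative settings. The number at least 2-fold higher was 6, and 12 with no filter on low counts. The number at least 2-fold lower was 2, and became 5 with limma-voom and 1 with at least 10 counts in every sample. Under that filter 0 members were apart in the lower direction, because Adamts16 was no longer tested. The median log2 fold change of members, 0.061, became −0.033 with limma-voom. Of the other network genes, 0 were at least 2-fold higher and 1 lower, and these became 2 and 5 without a filter, 2 and 3 with the metastasis in the fit, and 3 lower with limma-voom. The other counts recomputed under these settings stayed within 1.5 times, and the sign changes of single members are given below. The causes of other changes were not tested.

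Leaving out 1 tumor at a time gave 4 to 9 members at least 2-fold higher and 1 to 5 lower, 6 to 10 apart higher and 2 to 4 apart lower, and a median of −0.013 to 0.18. No shares of all genes are given for these fits. Groups with 1 tumor fewer are apart more readily for any gene, so the larger numbers apart are not a result about the members. For the other network genes it gave 0 to 1 higher and 0 to 2 lower. The log2 fold change changed sign for 9 of the members named by the rule, with the range −0.32 to 0.093 for Adamts6, −0.86 to 0.50 for Adamts8, −0.34 to 0.40 for Adamts9, −0.23 to 0.91 for Adamtsl2, −1.42 to 0.27 for Mmp3, −0.92 to 0.14 for Mmp8, −0.85 to 0.52 for Mmp13, −0.030 to 0.16 for Mmp14 and −0.49 to 0.89 for Timp2. It also did for Adamts2 (−0.89 to 0.070), Adamts4 (−0.86 to 0.25) and Adamts14 (−0.84 to 0.20). Among the other settings, Adamts8 turned to 0.0016 with TMM and 0.010 with DESeq2, Adamts9 to −0.13 and Mmp8 to 0.36 with limma-voom.

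Whether the replicate numbers pair the tumors could not be decided. The deviations of same-numbered tumors correlated at 0.259, 0.252 and 0.0387. Of these, 0.259 and 0.252 were the highest of any pair, whereas EMT6-P replicate 3 correlated better with EMT6-PTR replicate 1 (0.0974). Deviations were taken from each group's own mean, so that these correlations depend on each other. With the replicate block, 0 members were called, 8 had an unadjusted p under 0.05, 5 were at least 2-fold lower, and the median over members, which falls on Adamts9, was −0.060.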
